A study of Mus musculus with 8 samples.

Results

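The insulin-like growth factor (IGF) axis was examined in mouse embryonic fibroblasts (MEFs), cells cultured from embryos, that lacked or carried the Lats2 gene. It was taken as 10 genes: the ligands Igf1 and Igf2, the receptors Igf1r and Igf2r, and the binding-protein genes Igfbp2 to Igfbp7. The members were the gene probes, not controls, whose gene name on the array is one of these symbols. They numbered 20 probes among 41174, or 10 gene names among 27745. All 10 genes had at least 1 probe above background by the filter used, as did 14791 gene names in all, and 17 of the 20 probes passed that filter. Each of 3 litters, numbered 112, 116 and 121, gave 1 Lats2-/- and 1 Lats2+/+ MEF extract, so that there were 6 extracts. All 6 are labelled as C57BL/6J and were untreated, and MEFs of the study were cultured in DMEM with fetal bovine serum, which itself carries IGFs and binding proteins. The knockout is homozygous per the labels. Each genotype is represented by 1 named clone in a litter, so that genotype and clone cannot be told apart within a litter. Both extracts of a litter were hybridised to the same Agilent arrays in different dyes, with 2 arrays for litters 112 and 116 and 4 for litter 121, with dye orientation balanced in each. A log2 ratio below is always Lats2-/- over Lats2+/+, averaged over the arrays of a litter, and the litter is the replicate (n = 3).

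IGF1 and IGF2 are secreted growth factors. Both act through the receptor tyrosine kinase IGF1R, while IGF2R, which also carries mannose 6-phosphate tagged enzymes to lysosomes, takes up IGF2 for degradation. IGF-binding proteins hold IGFs outside the cell, where they can lengthen their life, keep them from the receptor or deliver them, and proteases release the ligand again. Cultured fibroblasts are a known source of both ligands and of several binding proteins. Lats2 encodes a kinase of the Hippo pathway, which restrains the co-activators YAP and TAZ, and these work on DNA through TEAD transcription factors.

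The letters GGAATG, or CATTCC on the other strand, are the core of the sequence that TEAD factors recognise. They were searched on both strands in the 250 bases before each start site of the RefSeq promoter table (GRCm38.p6), in which all 10 genes were found with 14 start sites. A match was present in 4 of these 14 windows, 3 of them of Igf2 and the other of Igfbp5, and in 12.64% of 32851 windows of the same length over all genes. By gene, 2 of the 10 members had a match in any window, against 14.36% of 27025 genes. The windows with a match are shown because Igfbp5 and Igf2 had the highest ratios of the family in litter 121, as that litter is labelled. In litter 116 the highest log2 ratios were those of Igf1 and Igfbp7, at 3.35 and 3.13, and neither gene had a match. A link between matches and ratios was not tested. The upstream Igfbp2 window is shown beside those of Igfbp5 and Igf2 because Igfbp2 is the neighbour of Igfbp5. Capitals mark the matched letters, each sequence is read 5′ to 3′ on the strand of the gene, and its last base lies next to the start site. The Igfbp5 window is chr1:72874866-72875115 (minus strand), with the match beginning 233 bases before the start.
Igfbp5: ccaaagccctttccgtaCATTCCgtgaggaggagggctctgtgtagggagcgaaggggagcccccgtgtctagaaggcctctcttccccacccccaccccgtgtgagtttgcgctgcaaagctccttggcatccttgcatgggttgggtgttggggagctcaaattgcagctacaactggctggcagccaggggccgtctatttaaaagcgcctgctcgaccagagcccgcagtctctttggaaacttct
Igf2 has 4 start sites in the table, and 3 of them had a match, at chr7:142661272-142661521, chr7:142658805-142659054 and chr7:142657497-142657746 (all minus strand).
Igf2 start 2: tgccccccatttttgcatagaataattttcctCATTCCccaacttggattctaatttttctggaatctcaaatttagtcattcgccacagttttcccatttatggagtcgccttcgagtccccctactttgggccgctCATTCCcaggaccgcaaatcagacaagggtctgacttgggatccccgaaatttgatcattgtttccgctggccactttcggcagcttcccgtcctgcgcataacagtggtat
Igf2 start 3: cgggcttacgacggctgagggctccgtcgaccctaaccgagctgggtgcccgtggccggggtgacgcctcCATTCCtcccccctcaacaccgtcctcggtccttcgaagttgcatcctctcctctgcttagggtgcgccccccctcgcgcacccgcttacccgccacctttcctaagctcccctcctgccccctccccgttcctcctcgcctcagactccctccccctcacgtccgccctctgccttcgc
Igf2 start 4: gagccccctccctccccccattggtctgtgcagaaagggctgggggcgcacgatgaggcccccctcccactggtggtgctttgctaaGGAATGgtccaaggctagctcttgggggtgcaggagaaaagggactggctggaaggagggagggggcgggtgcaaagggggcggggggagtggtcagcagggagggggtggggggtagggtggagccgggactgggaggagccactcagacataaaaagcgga
The upstream start of Igfbp2, at chr1:72824230-72824479 (plus strand), had no match in this window.
Igfbp2 start 1: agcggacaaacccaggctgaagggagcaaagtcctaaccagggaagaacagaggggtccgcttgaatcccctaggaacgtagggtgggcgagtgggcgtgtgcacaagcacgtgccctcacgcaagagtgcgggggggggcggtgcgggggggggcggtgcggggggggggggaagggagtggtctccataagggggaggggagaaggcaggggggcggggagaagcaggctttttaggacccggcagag
A match is a description of the letters and not a measured site. The array probes lie in transcripts and do not tell the start sites of Igf2 apart.

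From 52.9% to 61.3% of the gene probes were called well above background for an extract on a single array. Of the 4 Lats2 probes, the upstream one (A_52_P425064) gave -1.33, -1.05 and -0.56 in litters 112, 116 and 121, lower in Lats2-/- cells each time. The brightest Lats2 probe (A_52_P315345), which lies downstream, had ratios of -0.26, -0.70 and 1.17, and the remaining pair (A_51_P331525 and A_51_P133349) had 1.12 and 0.80 in litter 121. In litter 121, 3 of the 4 Lats2 probes were thus higher in the extract labelled Lats2-/-, and every direction given for that litter rests on its label. The study also examined Lats2 protein in its MEFs by western blotting, and the litter of the pair shown is not named there. Where the deletion lies relative to these probes is not given in the sources used here. The labels of the fibroblast type were checked on 8 fibroblast and mesenchyme genes, all of which cleared background in 5 extracts, with 7 of 8 doing so in the litter 121 Lats2-/- extract. Of 23 genes that mark epithelium, endothelium, blood, liver, muscle or neural cells, 4 to 7 were well above background in an extract.

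The direction of each gene was compared between litters first. With each gene read at its brightest probe, 6 of the 10 genes were above background in at least 1 genotype of every litter. Of these, Igf1 was higher in Lats2-/- cells of all 3 litters, and Igf1r, Igf2r, Igfbp2, Igfbp6 and Igfbp7 were higher in at least 1 litter and lower in another. Among all genes measured in this way, 15.7% were higher in all 3 litters and 70.0% had mixed signs, so that 1 and 5 of 6 lay near the background. The other 4 were above background in neither genotype of 1 litter, which gives no direction there: litter 112 for Igf2, Igfbp3 and Igfbp4, and litter 116 for Igfbp5. In the litters left, Igf2 and Igfbp5 were higher, Igfbp3 was lower and Igfbp4 was mixed. By the sign of the ratio alone, background values included, 2 of 10 genes (Igf1 and Igfbp5) were higher in all 3 litters, against 15.9% of all genes, and 0 of 10 were lower in all 3, against 14.1%. These counts depend on the direction of litter 121, which rests on its label. With that litter turned, Igf2r alone was higher in all 3, against 12.8% of all genes, and Igfbp2 alone was lower in all 3, against 11.7%, while Igf1 and Igfbp5 had mixed signs. Of the 6 genes measured in every litter, 2 then had 1 sign and 4 had mixed signs, against 75.5% of all genes so measured. In litters 112 and 116 by themselves, again by sign alone, 3 genes (Igf1, Igf2r and Igfbp5) were higher in both, against 28.7% of all genes. Igfbp2 alone was lower in both, against 25.8%. In limma, which tests the 3 litter ratios against 0, 0 of the 17 member probes had an adjusted p under 0.05, as had 0% of the 22642 probes tested. Of the 17 probes, 1 (Igfbp5) had an unadjusted p under 0.05, against 6.84% of all probes. That probe passed the filter only through the Lats2-/- extracts, where it is high, and its litter 116 ratio is a background value. With the strict filter, and with no filter, 0 member probes had such a p in limma. The Igfbp5 probe was the 1 member that had such a p and also a 2-fold difference, which 0.835% of all probes had with limma's unadjusted p. The study's methods ask for that size with another test, and by that test, run on the same litter ratios, 0 member probes passed. The share with an unadjusted p under 0.05 lay near the background.

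Differences within single litters were counted next. At least 2-fold in either direction were 3 of the 10 genes in litter 112, against 4.61% of all genes. In litter 116 there were again 3 of 10, against 9.24%. In litter 121 there were 8 of 10, against 7.27%. The 8 genes in litter 121 were split between 5 that were higher in Lats2-/- cells (Igf1, Igf2, Igf1r, Igfbp2 and Igfbp5) and 3 that were lower (Igfbp3, Igfbp4 and Igfbp6). Each litter is 1 pair of extracts, so that these counts carry no test, and Igfbp3 and Igfbp5 passed the filter through 1 genotype only. The 10 genes were chosen with earlier results of these data known. With the strict filter, which asks for all 6 extracts and leaves 5 member genes, the counts in litters 112, 116 and 121 were 2, 2 and 3. No share of all genes under that filter is given, so that these counts cannot be set against a background. With the processed signals of Feature Extraction the counts were 5, 6 and 8 of 10, against 11.1%, 16.8% and 12.5% of all genes under those signals. Litter 121 was also the only litter on its slide, so that litter and slide cannot be told apart. The median size of the litter 121 ratio, sign left aside, was 1.61 on the log2 scale over the 10 genes and 0.20 over all genes. Over the 3 litters, 9 of the 10 genes were at least 2-fold apart in at least 1 litter, against 15.8% of all genes, and 1 (Igfbp2) in all 3, against 0.744%.

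**Figure D1:**
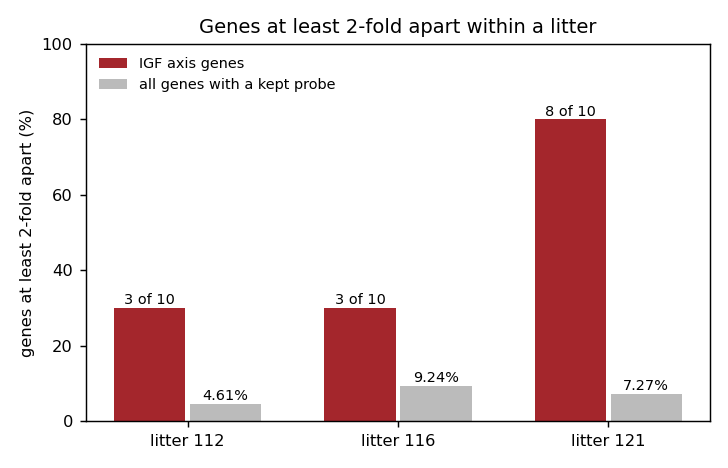
Share of genes whose ratio was at least 2-fold in either direction within a litter, for the 10 IGF axis genes (red) and for all genes with a kept probe (grey), in percent. The red bars stand at 3, 3 and 8 of 10 genes and the grey bars at 4.61%, 9.24% and 7.27%.

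The spread of the ratios was taken over litters. The arrays of a litter carry the same pair of extracts, so that their SD, at most 0.28 on the log2 scale for a member probe, measures technical error only. Between litters, the SD of the gene's ratio ran from 0.57 (Igf2r) to 2.97 (Igfbp2), with a median of 1.43 over the 10 genes and of 0.27 over all genes.

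**Figure D2:**
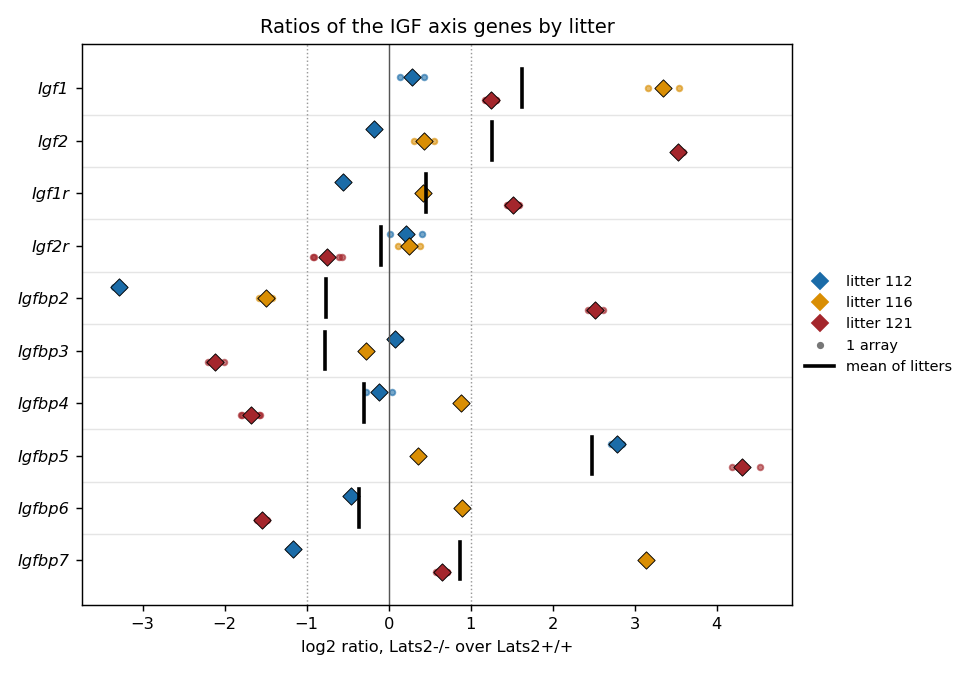
Log2 ratio of Lats2-/- over Lats2+/+ for the brightest probe of each IGF axis gene. Diamonds are litters, small points single arrays, black bars the mean of 3 litters and dotted lines a 2-fold difference. Igf1 and Igfbp5 have all 3 diamonds above 0, though Igfbp5 was at background in litter 116, and Igfbp2 has 2 litters below -1 and 1 above 2.

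The wild-type extracts also differed widely from each other. In 9 of the 10 genes, the range of log2 signal over the 3 Lats2+/+ extracts was larger than the size of the mean log2 ratio between genotypes, as it was in 88.9% of all genes. The exception was Igfbp5, with a Lats2+/+ range of 1.25 and a mean ratio of 2.48, but 2 of its 3 Lats2+/+ extracts were not well above background. The Lats2+/+ range was at least 1 for 9 genes, against 18.9% of all genes, and 0.50 for Igf1r. These ranges and the mean ratios depend on which extract of litter 121 is labelled Lats2+/+. The counts, the shares of all genes and Igfbp5 as the exception therefore rest on that label. None of them is given with litter 121 turned. Signals of this kind are compared only within a probe, since probes differ in brightness.

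**Figure D3:**
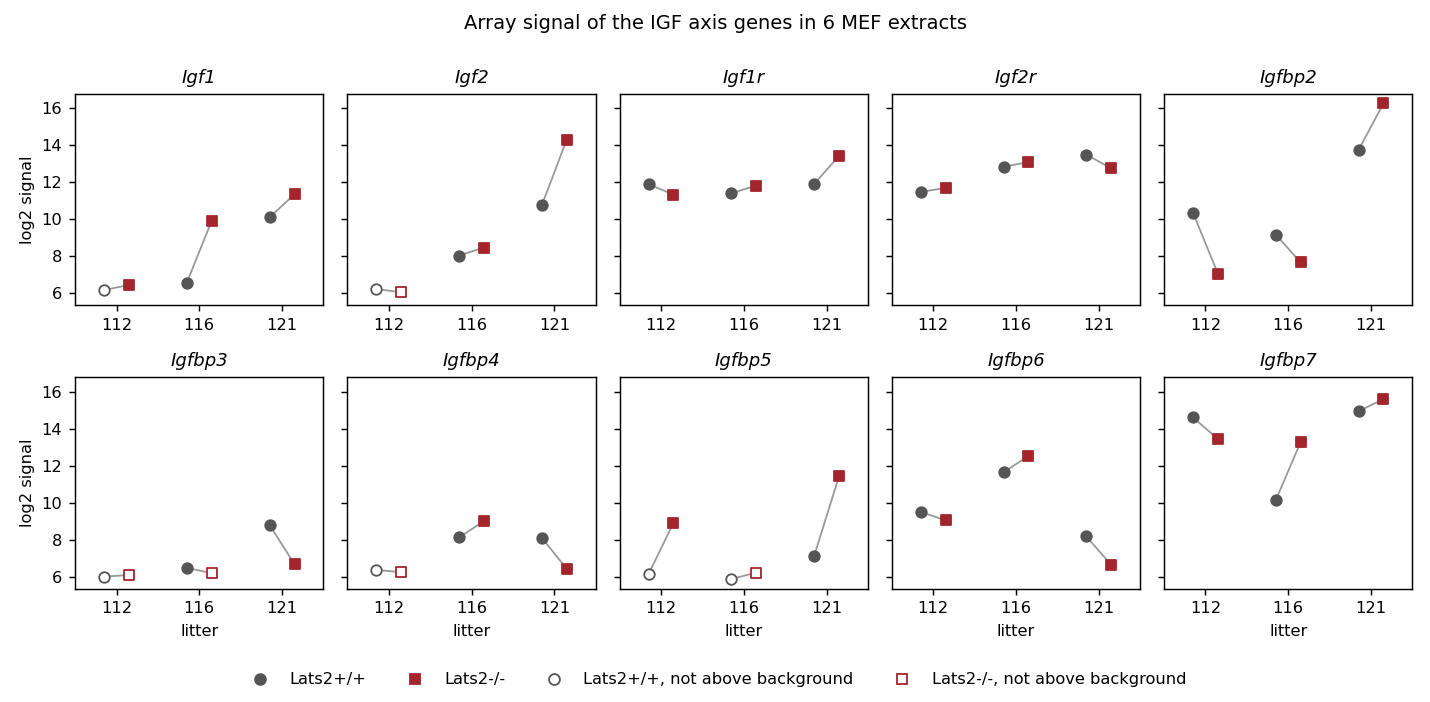
Log2 signal of the brightest probe of each gene in the 6 extracts after normalization, with Lats2+/+ as circles and Lats2-/- as squares, joined within a litter. Open symbols are extracts in which the probe was not well above background on any array. Igf2 runs from 6.22 to 10.77 among the Lats2+/+ extracts alone.

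Igf1, the ligand that acts on IGF1R in most tissues, had a higher signal in Lats2-/- cells in each litter. Its brightest probe (A_51_P147942, chr10:87360570-87360629 in mm8, plus strand, printed at 10 spots per array) had log2 signals of 6.44, 9.91 and 11.34 in the Lats2-/- extracts of litters 112, 116 and 121. The Lats2+/+ extracts had 6.16, 6.57 and 10.10. Lats2-/- was the brighter extract in each litter, but the genotypes overlap across litters. The Lats2+/+ extract of litter 121 was brighter than the Lats2-/- extracts of litters 112 and 116. The log2 ratios were 0.28, 3.35 and 1.24, of which that of litter 116 corresponds to 10.2-fold. In litter 112 the probe was not well above background in Lats2+/+ cells, and the difference there was at least 1.19-fold. The mean was 1.62 ± 1.57 (SD, n = 3), with a 95% confidence interval of -0.24 to 3.49, a p of 0.0728 in limma and, adjusted, a p of 0.716. A second probe of the same gene (A_52_P536434) gave 0.22, 3.00 and 1.20. The remaining probe (A_52_P306327), which is dim and passed the filter only through the Lats2-/- extracts, gave 0.12, 0.33 and 0.64. Under the processed signals of Feature Extraction, where dim signals are replaced by surrogates, the mean of the brightest probe was 2.69, more than 1.5 times as large. Without litter 116 the mean was 0.76, without litter 121 it was 1.81 and without litter 112 it was 2.29.

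Igf2, the imprinted ligand of fetal growth, stood out in litter 121. Its brightest probe (A_51_P516826, chr7:142460185-142460245, minus strand, 10 spots per array) had log2 signals of 6.04, 8.46 and 14.30 in Lats2-/- and 6.22, 8.03 and 10.77 in Lats2+/+ extracts. Signals thus followed the litter in both genotypes, from litter 112 with the lowest to litter 121 with the highest. In litter 112 the probe was not well above background in either genotype, so that no direction can be read there. Ratios on the log2 scale were -0.18, 0.43 and 3.53, the last being 11.6-fold. The mean was 1.26 ± 1.99 (SD, n = 3; limma p of 0.208, adjusted p of 0.772), and without litter 121 it was 0.13. The second Igf2 probe (A_51_P516833) gave -0.059, 0.21 and 4.05.

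H19, the non-coding RNA expressed from the other parental allele of the same imprinted region, was set beside Igf2, though by its values it would not have been named. Its ratios were 0.027, -2.61 and 2.55 at the brighter probe (A_51_P142196), with log2 signals of 6.68, 11.50 and 13.07 in Lats2-/- and 6.65, 14.11 and 10.52 in Lats2+/+ extracts. In litter 121 both transcripts were higher in Lats2-/- cells. In litter 116 H19 was lower while the Igf2 ratio was 0.43.

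The signalling receptor Igf1r showed the same order of litters in 4 of 4 probes. The brightest (A_51_P474538, chr7:68105625-68105684, plus strand) had log2 signals of 11.33, 11.82 and 13.42 in Lats2-/- and 11.89, 11.40 and 11.91 in Lats2+/+ extracts. Lats2-/- cells of litter 121 thus stood above the other 5 extracts, which lay between 11.33 and 11.91. Its litter ratios were -0.56, 0.41 and 1.52, averaging 0.46 ± 1.04 (SD, n = 3; limma p of 0.365, adjusted p of 0.840). The other probes gave -0.50, 0.34 and 1.38 (A_51_P318365), -0.43, 0.38 and 1.20 (A_52_P634111) and -0.36, 0.17 and 0.73 (A_52_P668647). Without litter 121 the mean of the brightest probe was -0.074.

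Igf2r, the clearance receptor for IGF2, had the smallest spread of the family. Its single probe (A_51_P125467, chromosome 17, minus strand) had log2 signals of 11.69, 13.08 and 12.74 in Lats2-/- and 11.48, 12.84 and 13.50 in Lats2+/+ extracts. The groups overlapped, and the lowest signals of both genotypes came from litter 112. Litter ratios were 0.21, 0.24 and -0.75, averaging -0.10 ± 0.57 (SD, n = 3). The 95% confidence interval ran from -0.82 to 0.62 (limma p of 0.717, adjusted p of 0.949), which does not show that the genotypes were alike. In litter 121, Igf2r was thus lower while Igf2 and Igf1r were higher in Lats2-/- cells.

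Igfbp5, which encodes a binding protein that also attaches to extracellular matrix, had higher signals in Lats2-/- cells of litters 112 and 121. Its brighter probe (A_52_P281702, chr1:72791462-72791521, minus strand) had log2 signals of 8.90, 6.22 and 11.43 in Lats2-/- and 6.13, 5.86 and 7.11 in Lats2+/+ extracts. Lats2-/- cells of litters 112 and 121 were above all 3 Lats2+/+ extracts. In litter 116 neither genotype was well above background. The log2 ratios were 2.78, 0.35 and 4.31. In litter 112 the Lats2+/+ extract was also not well above background, which makes the difference there at least 6.69-fold, and in litter 121, where both were measured, it was 19.9-fold. The mean was 2.48 ± 2.0 (SD, n = 3), with a 95% confidence interval of 0.11 to 4.85, a p of 0.0438 in limma and, adjusted, a p of 0.711. The probe passed the filter only through the Lats2-/- extracts, and the mean was 4.62 on Feature Extraction's processed signals. Without litter 121, whose direction rests on its label, the mean of the main values was 1.57, background values included. The unadjusted p was above 0.05 without litter 112 (limma p of 0.150), without litter 121 (limma p of 0.112) and by the test the methods name.

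The second Igfbp5 probe (A_51_P204153, chr1:72793999-72794058) was dim. It lies 2477 bases from the first on the same chromosome, and did not pass the filter. Its log2 ratios were 0.051, -0.051 and 0.46. In litter 121 it cleared background for the Lats2-/- extract on 4 of 4 arrays, and it did so on no other array of either genotype, and the difference in that litter was at least 1.34-fold. Its log2 signal was 6.50 there and between 6.04 and 6.11 in the other 5 extracts.

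Igfbp2 lies next to Igfbp5 on chromosome 1, with 0 other genes between them in the RefSeq table and with array probes 6092 bases apart in mm8. Igfbp2 encodes a binding protein abundant in fetal tissue, and its probe had the widest range of the family. The single probe (A_51_P423308, chr1:72785310-72785369, plus strand) had log2 signals of 7.05, 7.66 and 16.27 in Lats2-/- and 10.34, 9.16 and 13.75 in Lats2+/+ extracts, and was well above background on every array. The Lats2-/- extracts thus included both the lowest and the highest signals of the 6. The log2 ratios were -3.29, -1.50 and 2.52, that is, 9.80-fold and 2.83-fold lower in litters 112 and 116 and 5.72-fold higher in litter 121. The mean was -0.76 ± 2.97 (SD, n = 3; limma p of 0.576, adjusted p of 0.917). Without litter 121 it was -2.40 (limma p of 0.0197, adjusted p of 0.734), and without litter 112 it was 0.51. In litter 112, Igfbp2 was lower and Igfbp5 higher in the same Lats2-/- extract. In litter 121 both were higher.

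The 5 probes of other genes whose log2 signal followed Igfbp2 most closely over the 6 extracts had Pearson correlations of 0.991 to 0.994, as a description of 6 points that share arrays within a litter. A correlation above 0.9 was found for 439 probes of other genes, of which the 5 highest are given. Tnfrsf11b, which encodes the decoy receptor osteoprotegerin, varied on a similar scale, with ratios of -2.47, -1.21 and 1.04. Pelo had ratios of -0.22, -0.11 and 0.21, and AK220117, C230029D21Rik and 4921505C17Rik had ratios between -0.25 and 0.18.

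Igfbp3, Igfbp4 and Igfbp6 were the 3 binding-protein genes with lower signals in Lats2-/- cells of litter 121. Igfbp3 encodes the main carrier of IGFs in serum. Its brightest probe (A_52_P253179, chr11:7106594-7106653, minus strand) had log2 signals of 6.08, 6.19 and 6.66 in Lats2-/- and 6.00, 6.46 and 8.79 in Lats2+/+ extracts. The Lats2+/+ extract of litter 121 stood alone above the rest. The log2 ratios were 0.082, -0.27 and -2.12, averaging -0.77 ± 1.18 (SD, n = 3; limma p of 0.203, adjusted p of 0.768), and a mean of -0.096 without litter 121. The probe passed the filter only through the Lats2+/+ extracts, and neither genotype was well above background in litter 112. With the processed signals of Feature Extraction the mean was -1.61. The other Igfbp3 probes did not pass the filter. They were well above background in no Lats2-/- extract, and on 4 arrays (A_51_P228472) and 2 arrays (A_52_P851352) of Lats2+/+ cells of litter 121, with ratios of -0.42 and -0.31 there.

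Igfbp4 encodes the binding protein that the protease PAPP-A cleaves to free IGF. Its brighter probe (A_52_P257502, chr11:98868110-98868169, plus strand) had log2 signals of 6.24, 9.01 and 6.41 in Lats2-/- and 6.36, 8.12 and 8.09 in Lats2+/+ extracts. In litter 112 neither genotype was well above background. Ratios by litter were -0.12, 0.89 and -1.68, so that Lats2-/- cells were higher in litter 116 and lower in litter 121. The mean was -0.31 ± 1.30 (SD, n = 3; limma p of 0.608, adjusted p of 0.926), and it was 0.38 without litter 121 and -1.06 with the processed signals. The second probe (A_51_P398971) gave -0.22, 0.71 and -1.43.

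Igfbp6, which encodes a binding protein that prefers IGF2, followed the same order of litters. Its probe (A_51_P374571, chr15:101977366-101977426, plus strand) had log2 signals of 9.04, 12.54 and 6.63 in Lats2-/- and 9.50, 11.64 and 8.17 in Lats2+/+ extracts. Litter 116 was the brightest in both genotypes and litter 121 the dimmest. Log2 ratios were -0.46, 0.90 and -1.54, averaging -0.37 ± 1.22 (SD, n = 3; limma p of 0.519, adjusted p of 0.898). The mean was 0.22 without litter 121 and -0.75 with the processed signals.

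Igfbp7, a related secreted protein that binds IGFs only weakly, had bright signals in every extract. Its probe (A_51_P472292, chr5:78424105-78424164, minus strand) had log2 signals of 13.45, 13.28 and 15.61 in Lats2-/- and 14.62, 10.15 and 14.96 in Lats2+/+ extracts. The Lats2+/+ extract of litter 116 lay below the other 5. This gave log2 ratios of -1.17, 3.13 and 0.65, with an 8.78-fold difference in litter 116. The mean was 0.87 ± 2.16 (SD, n = 3; limma p of 0.393, adjusted p of 0.853), -0.26 without litter 116 and 0.98 without litter 121.

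**Figure D4:**
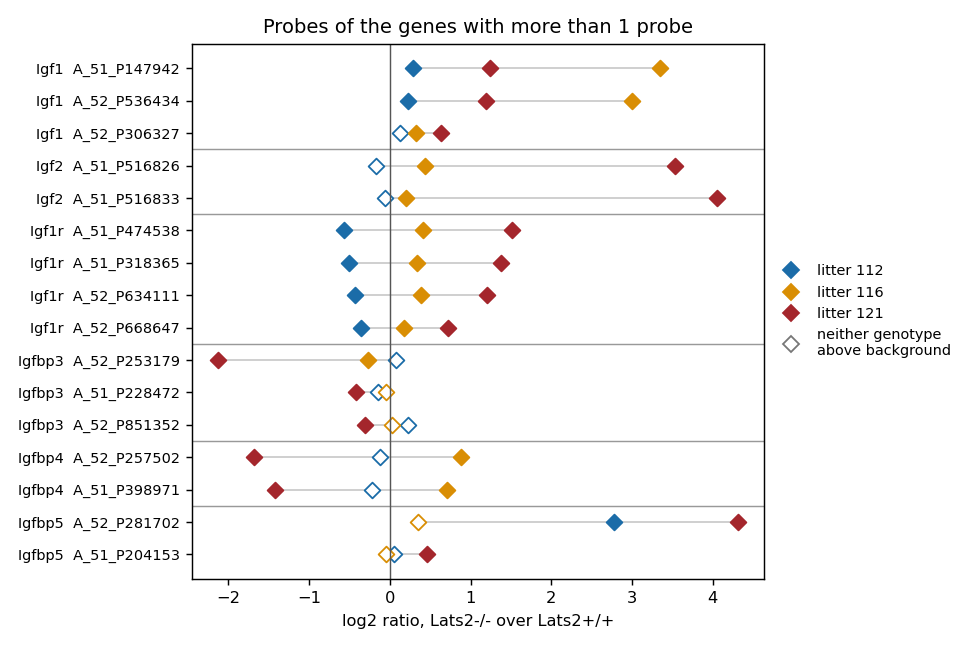
Log2 ratio of Lats2-/- over Lats2+/+ for every probe of the 6 genes with more than 1 probe. Diamonds are litters, and open diamonds mark a probe that was on no array of that litter well above background in either genotype. The 4 Igf1r probes share their order of litters, and the dimmer Igfbp5 probe was not well above background in litters 112 and 116 in either genotype.

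Fibroblast markers also differed between the genotypes of litter 121. Pdgfra, a receptor of mesenchymal cells, differed by 0.90 in litter 112 and by 0.13 in litter 116, both on the log2 scale and higher in Lats2-/- cells. In litter 121 its signal was 6.30 in Lats2-/- cells, well above background on only 2 of 4 arrays, against 11.26 in Lats2+/+ cells. Thy1, a surface protein of fibroblasts, had -3.66, and Col3a1, a fibrillar collagen, -3.42 in that litter, whereas in litter 116 the ratios were 2.05 and 3.70. Nes, which encodes the intermediate filament nestin, had 4.10. Vim and Fn1, which are abundant in fibroblasts, were at -0.066 and 0.073 in litter 121 and at -1.19 and 2.40 in litter 116. The collagen gene Col1a1 had -1.13 in litter 121 and 2.75 in litter 116. Of the 8 fibroblast genes, 0 were at least 2-fold apart in litter 112, against 4.61% of all genes. There were 6 in litter 116, against 9.24%, and 4 in litter 121, against 7.27%. The log2 of the summed signal of the 8 genes lay between 17.69 and 18.69 in the Lats2-/- extracts and between 17.45 and 18.65 in the Lats2+/+ extracts. Among the other cell types, Cdh1 of the epithelial list, Kdr of the endothelial list and Afp of the liver list cleared background in the litter 121 Lats2-/- extract and in no other. Krt8 and Krt18 of the epithelial list did so in the litter 116 Lats2+/+ extract and in no other. Ptprc, Emr1, Pecam1, Cdh5, Alb1, Ttr, Apoa1, Tacstd1, Sox2, Myod1, Myog and Des were not well above background in any extract. Acta1, the skeletal muscle actin gene of the muscle list, was well above background in all 6 extracts, with log2 ratios of -0.47, 3.48 and 0.35, the largest of them in litter 116. Tek of the endothelial list cleared background in 5 extracts, Cd68 of the blood list in 4 and Csf1r of the same list in 2, with ratios between -0.32 and 0.36. The log2 of the summed signal of the neural list was 9.61, 9.93 and 12.75 in the Lats2-/- extracts and 10.30, 9.46 and 10.14 in the Lats2+/+ extracts. The part of these differences in the IGF axis ratios was not tested, and in such extracts a smaller share of cells of a type and less RNA per cell cannot be told apart.

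Beyond the family, 4 lists of IGF pathway genes were read, with 38 genes in all. Of these, 37 were on the array and 33 had a kept probe. In limma 0 of the 33 genes passed the adjusted threshold. An unadjusted p under 0.05 was reached by 4 genes, or 12.1%, against 7.59% of all genes. They were 3 that were higher in Lats2-/- cells (Irs1, Gab1 and Pik3r2) and 1 that was lower (Stc2). All 4 had the same sign in every litter as labelled, and would have mixed signs with litter 121 turned. The share with such a p is not given for that litter turned. The median mean log2 ratio was 0.12 over the 33 genes and 0.013 over all genes. At least 2-fold apart were 3 of the 33 (9.09%) in litter 112, against 4.61% of all genes, 7 (21.2%) in litter 116, against 9.24%, and 6 (18.2%) in litter 121, against 7.27%.

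Irs1, the adaptor that carries the signal from IGF1R and the insulin receptor to PI3-kinase, was higher in each litter. Its brighter probe (A_52_P175242) gave 0.78, 1.0 and 1.14, averaging 0.97 ± 0.18 (SD, n = 3; limma p of 0.00153, adjusted p of 0.634). The SD over the arrays within litters 112, 116 and 121 was 0.37, 0.35 and 0.30 at this probe, larger than the SD between litters. The second Irs1 probe (A_52_P171212) gave 0.43, 0.74 and 0.86. In the list of receptors and adaptors, 9 of the 9 genes with a kept probe had a mean above 0, against 53.0% of all genes. The means ran from 0.0094 to 1.09, and 3 of the 9 genes were higher in all 3 litters, against 15.9% of all genes. With litter 121 turned, 7 of the 9 means were above 0, against 52.3% of all genes. Higher in all 3 litters were then 2 of the 9 genes, against 12.8%. Without litter 121, 8 of the 9 means were above 0, against 53.4%, and 5 of the 9 genes were higher in both litters left, against 28.7%. Insr, Insrr and Irs4 had means of 0.037, 0.0094 and 0.024 and mixed signs over the litters. Of these, Insr passed the filter only through the Lats2-/- extracts. Gab1, a docking protein of receptor tyrosine kinases, had 0.19, 0.65 and 0.68 (limma p of 0.0296, adjusted p of 0.711). Grb10, an imprinted adaptor that dampens signalling of IGF1R and the insulin receptor, had 2.85, -0.51 and 0.91, averaging 1.09 ± 1.69 (SD, n = 3). Its sign thus changed between litters.

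Among the genes that set how much IGF is free, 4 of 8 had a kept probe, and Igfbp1, Igfals, Pappa2 and Igfbpl1 had none. Stc2, which encodes stanniocalcin 2, an inhibitor of PAPP-A, was lower in each litter, with log2 ratios of -0.81, -2.12 and -0.84, averaging -1.26 ± 0.75 (SD, n = 3; limma p of 0.0200, adjusted p of 0.711). In litter 121 it was not well above background in Lats2-/- cells, and the difference there was at least 1.73-fold. Pappa, which encodes PAPP-A itself, had -0.47, 3.02 and 1.08, averaging 1.21 ± 1.75 (SD, n = 3; adjusted p of 0.760 in limma). Stc1, the paralog of Stc2, was singled out after its values were seen. It was at least 4.93-fold lower in Lats2-/- cells of litter 116, which were not well above background, and had a log2 ratio of 4.51 in litter 121. In litter 112 neither genotype was well above background.

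Downstream, 16 of 16 genes from PI3-kinase to FOXO and mTOR had a kept probe. Their mean log2 ratios ran from -0.39 to 0.76, with 10 above and 6 below 0. Pik3r2, a regulatory subunit of PI3-kinase, had 0.30, 0.28 and 0.24 (limma p of 0.0471, adjusted p of 0.711). At least 2-fold apart were 0 of the 16 in litter 112, against 4.61% of all genes. There were 2 in litter 116, against 9.24%, and 1 in litter 121, against 7.27%. Of the 4 genes that act on Igf2 mRNA or share its region, H19 and the RNA-binding protein genes Igf2bp1, Igf2bp2 and Igf2bp3, 1 had a mean above 0 and 3 below, between -0.50 and 0.095.

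**Figure D5:**
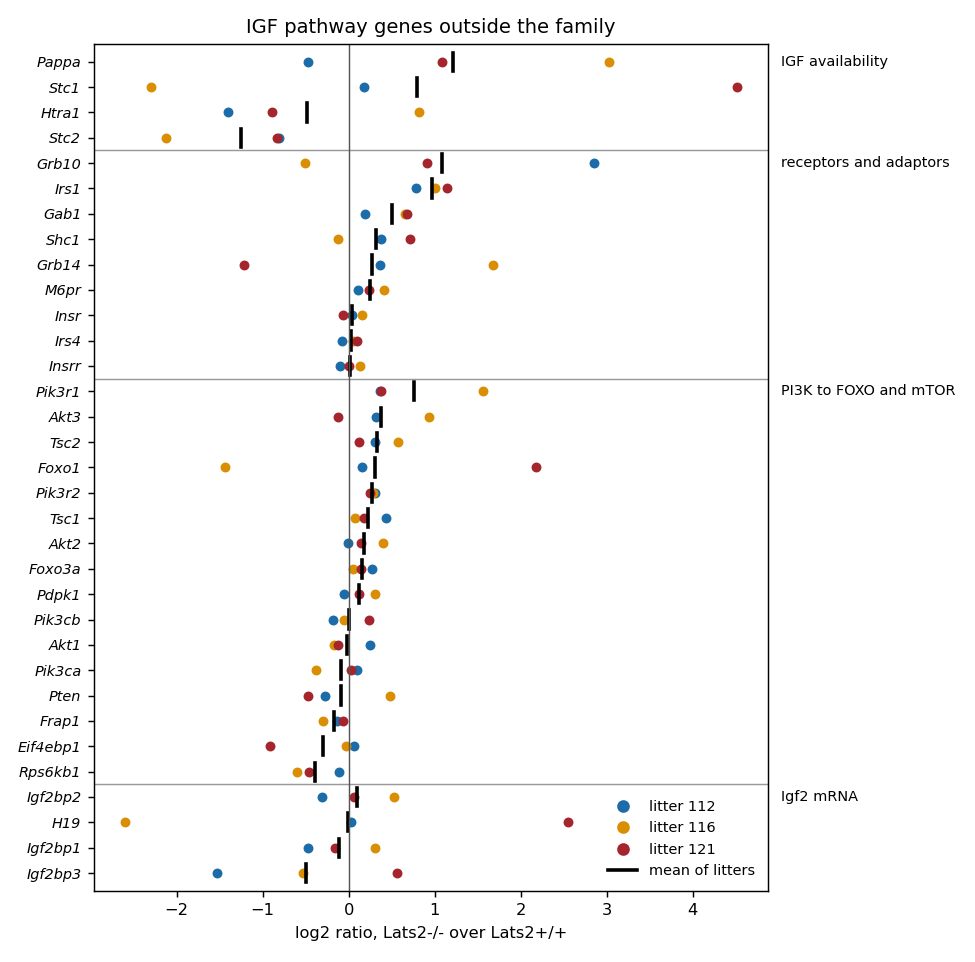
Log2 ratio of Lats2-/- over Lats2+/+ for the brightest kept probe of 33 IGF pathway genes outside the family, in 4 lists. Points are litters and black bars the mean of 3 litters. Irs1 has its 3 points between 0.78 and 1.14, while H19 lies on both sides of 0.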

How the data were processed

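RNA from 3 litters was measured on 8 two-colour Agilent arrays of a whole mouse genome design. Scans were extracted by the authors with Agilent Feature Extraction (10.7.3.1 per the file headers, 10.5.1.1 in the submitters' processing notes). The deposited scanner files give intensity on a linear scale, unnormalized, together with processed intensity, flags, and probe positions in mm8. The log10 ratio columns, in those files and in the value table deposited for the series, are dye normalized; the table differed from the scanner ratios by at most 0.00500 and gives Lats2-/- over Lats2+/+ on every array, with a median of 0, and 0 of its columns were left unmapped. The methods do not say how surrogate values for dim spots entered these ratios.

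Mean intensities were corrected against local background (normexp, offset 50) and normalized by loess within arrays in limma 3.58.1 (R 4.3.3), with control spots at weight 0. Over the 8 arrays 860 outlier gene spots were left out and 0 gene spots were saturated. Spots of a probe, then the arrays of a litter, were averaged, since arrays of a litter share their 2 extracts; pairing is by litter, as the labels' clone names give it. A probe was kept when well above background in at least 2 of 3 extracts of either genotype (22642 probes). Log2 signals were taken after Aquantile. The 3 ratios were tested against 0 with lmFit and eBayes, two-sided, with Benjamini-Hochberg adjustment over all kept probes at 0.05; the script was checked on simulated data. Bounds ("at least") set the brighter genotype against the higher of the lowest signal well above background on each array and the probe's own. These bounds are averages over a litter's arrays with no error margin, so that a single array can lie below them. The number of litters (n = 3) limits precision.

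Alternatives were another offset, processed signals, the value table, median centring, stricter and no filters, no replicate block, slide, litter and dye terms, the methods' t-test, the mean of a gene's probes, and leaving out each litter; counts of genes at least 2-fold apart, the separate dye-swap pairs of litter 121, and direction counts with litter 121 turned or left out, were added after seeing the data. All member probes are named, each gene being read at its brightest kept probe. Pathway genes are named at an unadjusted p under 0.05 or a mean log2 ratio of at least 1, apart from H19, Stc1, Insr, Insrr, Irs4 and the Igf2bp genes, and other genes by the 5 highest correlations with the member of widest range. Members, lists and the motif were chosen with earlier results of these data known. Gene names are those of the array; Irs2 was not among them.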

Additional observations from a re-analysis of the deposited data

Results flagged for a closer look

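The Igfbp5 probe that did not pass the filter (A_51_P204153) cleared background in litter 121 for the Lats2-/- extract on 4 of 4 arrays, and on 0 arrays for any Lats2+/+ extract, a signal outside the tested probes. Its log2 signal was 6.50 in that extract, and the difference within the litter was at least 1.34-fold, against 19.9-fold at the other Igfbp5 probe. With 3 litters in a group, no test for a sample standing apart from its group was run. Single extracts and litter 121 are described above without such a test.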

How the results depend on the processing

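Among 159 values of the 10 genes' mean ratios under alternatives, 152 kept their sign and 1 passed the adjusted threshold. That was Igfbp5 over the 8 arrays with litter as a random block (2.503, adjusted p of 0.0455 in limma); over that gene's alternatives the adjusted p ran from 0.0455 to 0.9998. Leaving out each litter in turn gave means of -0.074 to 0.96 for Igf1r, -0.27 to 0.23 for Igf2r, -2.40 to 0.51 for Igfbp2, -0.90 to 0.38 for Igfbp4, -1.0 to 0.22 for Igfbp6 and -0.26 to 1.89 for Igfbp7, each crossing 0. With slide as a fixed block Igfbp2 was at 0.060, also on the other side of 0. Slide 1 held litters 112 and 116 and slide 2 only litter 121, so the means without litter 121 are the values within slide 1.

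Over all probes, those past the adjusted threshold numbered 341 in the random block fit and 203 once a dye term joined it, against 0. Those past the 2-fold size with an unadjusted p under 0.05 numbered 189, and 305 with normexp at an offset of 16, 550 with the processed signals, 545 with the deposited value table, 418 with the slide block, 414 and 399 with the random block without and with the dye term, 110 with no replicate block and 71 with the methods' t-test; without single litters there were 260 to 373. Of member probes, 1 was past that size and p, against 3 with the processed signals and with the value table (Igfbp5 and 2 of Igf1), 4 with the slide block, 5 and 4 with the random block, 1 to 2 without single litters (2 Igf1 probes without litter 112, Igfbp5 without 116, Igfbp2 without 121), and 0 with the strict filter, with no filter, with no replicate block and with the methods' t-test. Without regard to size the counts were the same apart from 2 at an offset of 16, 5 with the slide block and 7 and 5 with the random block. The strict filter removes the Igfbp5 probe; the other causes were not tested.

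Of the 4 member probes with 1 sign in all litters, 0 passed the strict filter. At least 2-fold apart were 5 genes in litter 112 and 6 in litter 116, with both the processed signals and the value table. The strict filter, under which 5 member genes remain, gave 2, 2 and 3 in litters 112, 116 and 121. Each dye-swap pair of litter 121 alone, an alternative added after seeing the data, changed no call or sign. Dim probes limit the sizes of Igf1, Igf2, Igfbp3, Igfbp4 and Igfbp5. The unpaired fit with no replicate block called 0 member probes and changed no other call of a gene.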
